A study of Sus scrofa with 16 samples.

Results

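miR-21 is a microRNA cut from the hairpin of the MIR21 gene. It was described here in pig endometrium, the lining of the uterus, through both arms of that hairpin: the 5p arm, which is the usual active strand, and the 3p arm. Members were all reads of 20 to 26 nt whose first 20 bases equalled the 5p or the 3p arm. They made 2 of the 23707 read groups (reads of 20 to 26 nt sharing their first 20 bases) that held at least 30 reads over all libraries. The 5p group held 9976005 reads of 684 distinct sequences, and the 3p group held 2713 reads of 114 distinct sequences. miR-21-5p was the most abundant read group in 14 of the 15 sows.

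The study sequenced small RNA from endometrium at day 10 of pregnancy. Sows had received oestradiol-17β by mouth from insemination onwards. Control sows (sows 1 to 4) received the ethanol carrier alone, sows 5 to 7 received 0.05 µg/kg body weight/day (labelled ADI), sows 8 to 11 received 10 µg/kg/day (labelled NOEL) and sows 12 to 15 received 1000 µg/kg/day (labelled high dose). All were pregnant, and the tissue of every sow was collected after the uterus had been flushed. Sow 7 was extracted and sequenced as 2 libraries, 7a and 7b, which were summed, so 16 libraries gave 15 sows. Endometrium is a mixture of epithelium, stroma, vessels and immune cells, and in such bulk tissue fewer cells of a type and less RNA per cell cannot be told apart.

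A microRNA guides the Argonaute protein to messenger RNAs through its seed, the bases near its 5′ end, and lowers the output of those messengers. miR-21-5p is abundant in many epithelial, stromal and immune cells and rises in inflammation, wound repair and many tumours. Dicer leaves the mature strand with a variable 3′ end, and nucleotidyl transferases can add A or U to it, which gives the length and tail variants called isomiRs. In the RefSeq gene table of the Sscrofa11.1 assembly, MIR21 lies between PTRH2 and TUBD1.

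The sequences below are those that the results turn on, written 5′ to 3′ as read (T for the U of the RNA). In the first 3, capitals mark the seed, bases 2 to 8. In the precursor stretch, which was assembled from deposited reads that run through the hairpin's loop, capitals mark the 16 nt loop. In the last, capitals mark the second copy of the 5p arm.
miR-21-5p, most abundant read (23 nt): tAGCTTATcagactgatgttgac
miR-21-5p, 22 nt read: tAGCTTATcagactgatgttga
miR-21-3p, most abundant read (21 nt): cAACAGCAgtcgatgggctgt
miR-21 precursor stretch (61 nt): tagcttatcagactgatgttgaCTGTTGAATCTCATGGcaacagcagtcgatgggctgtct
read of 2 joined 5p copies (45 nt): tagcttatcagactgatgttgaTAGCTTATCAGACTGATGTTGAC

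The 3p group was chosen for its pairing with the 5p arm, so part of the duplex given next was set by that choice. The 22 nt 5p read and the 21 nt 3p read formed 19 base pairs in the minimum free energy duplex, at -24.2 kcal/mol. The loop was read directly in 41 reads from 12 libraries, of which the 46 nt read used for the precursor stretch had 5 copies. The 5p arm continued in that stretch with C and then T after base 22. The 23 nt read and the 24 nt read ending in CT therefore matched the hairpin over their whole length. Such reads are called templated here, although an added base equal to the hairpin's next base would look the same.

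Libraries held 4497096 to 14945018 reads, of which 2736396 to 11710653 per library were 18 to 26 nt long. Levels are given as reads per 1000000 reads of 18 to 26 nt (RPM). Libraries fell into 3 length profiles. Profile A (sows 1, 2, 5, 8, 9 and 12) had 5.20 to 6.17% of reads at 17 to 19 nt. Profiles B (sows 3, 4, 7, 10, 11 and 15) and C (sows 6, 13 and 14) had 9.99 to 16.1% and 10.4 to 11.8%. Reads of 40 nt or more made 11.3 to 12.6% in A, 0.976 to 4.75% in B and 9.41 to 10.18% in C. Sow 7, at 4.75%, lay beside the limit of 5% between B and C, with 2.11% in library 7a and 6.38% in 7b. Profiles A and B held 2 control sows each and at least 1 sow of every dose, whereas profile C held 0 control sows. Seed-matched microRNAs of the endometrium's cell types were found in all 15 sows: the summed epithelial list (4 seed families, among them miR-200) ranged from 18085 to 30426 RPM over the dose groups and controls, and the stromal and smooth muscle list (6 families, among them miR-143) from 77625 to 158684. The leukocyte list (5 families, among them miR-142 and miR-223) summed to 179 to 517, the endothelial miR-126 list to 4074 to 8178 and the erythroid list to 897 to 3592. Of the list of other tissues, the groups found for the liver and muscle families averaged 19.5 RPM for miR-122, 435 (150 to 1173 over sows) for the miR-1 family of muscle and 31.9 for miR-133 of muscle. miR-9 and miR-375, which some epithelia also make, averaged 1661 and 1330. The groups found for the list's seeds of miR-124 and miR-208 had other bases after the seed, so they are not counted as these microRNAs.

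miR-21-5p took 10.9% ± 2.71 (SD, n = 15 sows) of all 18 to 26 nt reads, and its share ran from 7.76% to 17.2%. The most abundant group other than miR-21-5p was in every sow the one with the miR-143 seed, a microRNA of smooth muscle and stroma that averaged 55219 RPM. The ratio of miR-21-5p to miR-143 had a median of 2.08 and was highest in sow 9 at 3.02. Sow 13, of the highest dose, was the exception, with 77609 RPM of miR-21-5p against 115911 of miR-143, a ratio of 0.670. That sow had the lowest miR-21-5p level and the highest miR-143 level of the 15. The next groups carried the seeds of miR-10 (30506 RPM), let-7 (28348 and 20848) and miR-148 (19983), so the mean of miR-21-5p, 109238, was above each of them.

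In control sows 1 to 4 the miR-21-5p level was 112921, 156177, 116988 and 78561 RPM, a mean of 116162 ± 31760 (SD, n = 4). At 0.05 µg/kg/day sows 5 to 7 had 93365, 91103 and 95541, a mean of 93336 ± 2219 (SD, n = 3). At 10 µg/kg/day sows 8 to 11 had 127499, 172291, 121333 and 88616, a mean of 127435 ± 34430 (SD, n = 4). The 3 sows of the lowest dose lay close together, within the range of the controls, while controls and the middle dose each spanned about the whole range of the study. At 1000 µg/kg/day sows 12 to 15 had 115954, 77609, 97373 and 93241, a mean of 96044 ± 15768 (SD, n = 4). Every dose group overlapped the controls. In the order of the group means, from 10 µg/kg/day through control and 1000 to 0.05 µg/kg/day, the ranges of neighbouring groups overlapped.

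**Figure D1:**
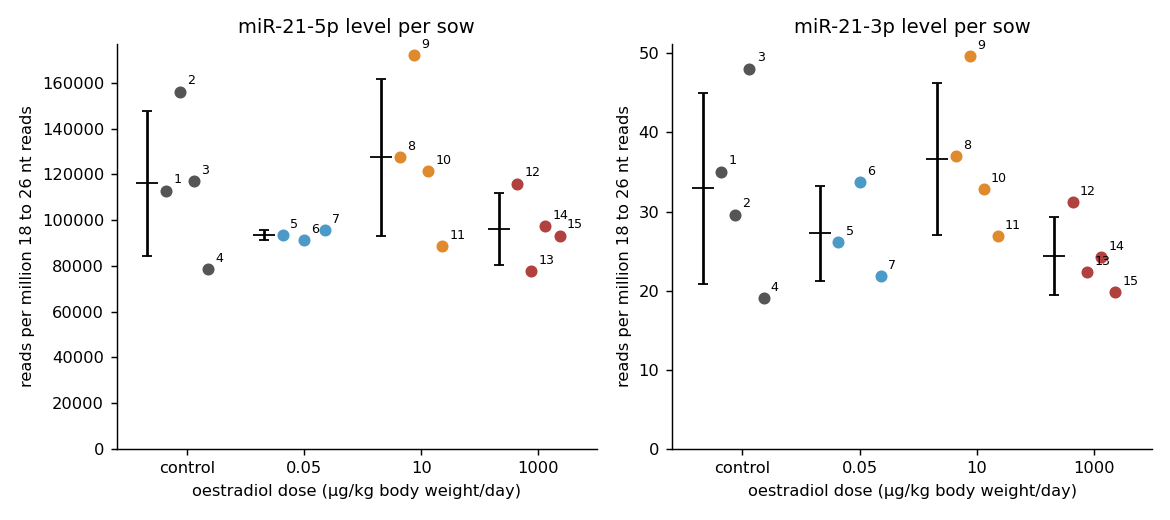
Level of miR-21-5p (left) and miR-21-3p (right) in each sow, in RPM, by oestradiol dose. Points are sows with their number, and the bars beside them are the mean and SD of the dose group. In both panels every dose group overlaps the 4 controls, and sow 9 is the highest of the 15.

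The dose comparisons ask whether oral oestradiol moved the endometrial miR-21 level by day 10. In edgeR's quasi-likelihood fit over all 9951 read groups that passed the low-count filter (both arms among them), miR-21-5p was not called at an adjusted p under 0.05 at any dose. The log2 difference from control was -0.34 at 0.05 µg/kg/day (95% interval -0.93 to 0.25, unadjusted p = 0.240), with 0 of 9951 read groups (0%) called in that comparison. It was 0.26 at 10 µg/kg/day (-0.28 to 0.81, edgeR unadjusted p = 0.324), again with 0% of read groups called. At 1000 µg/kg/day it was -0.25 (-0.80 to 0.29, edgeR unadjusted p = 0.347), with 0% called. After adjustment over all read groups, edgeR's adjusted p was 1.00 for each dose. The joint edgeR test of all doses gave an unadjusted p of 0.138 and an adjusted p of 1.00, with 0% of read groups called. The intervals leave room for changes of miR-21-5p near 0.8 to 0.9 on the log2 scale in the direction observed. With an unadjusted p under 0.05, edgeR had 256, 317 and 445 read groups at the 3 doses in rising order and 305 in the joint test, and DESeq2 called 0, 1 and 0 at an adjusted p under 0.05. Without sow 9, the highest sow, the miR-21-5p difference at 10 µg/kg/day was -0.05. TMM rescales libraries to a common set of read groups. With no TMM factor the difference was 0.13 on 18 to 26 nt totals and 0.24 on totals of all deposited reads, and with DESeq2 size factors it was 0.26.

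miR-21-5p varied by 0.32 on the log2 scale within dose groups (pooled SD), while the libraries 7a and 7b of the same sow, at 93062 and 97148 RPM, differed by 0.06. For miR-21-3p the same values were 0.40 within dose groups and -0.20 between 7b and 7a. This is 1 pair of libraries from 1 sow, of which 7a had length profile B and 7b profile C. miR-21-5p had its highest median in length profile A. There it had a median of 121727 RPM (93365 to 172291, 6 sows), in profile B 94391 (78561 to 121333, 6 sows) and in profile C 91103 (77609 to 97373, 3 sows). The profile falls unevenly over the doses, and its part in the level was not tested beyond the fits here. With the profile as a covariate, edgeR's log2 differences of miR-21-5p were -0.30, 0.25 and -0.23 at the 3 doses in rising order. Within profile A alone they were -0.73, 0.31 and -0.31, and within profile B alone 0.02, 0.17 and -0.14, with only 1 or 2 sows per group and 0 calls of miR-21-5p. In the share of 17 to 19 nt reads profile A stands apart from B and C, which overlap, so its relation with the miR-21-5p level was read within profiles. Pearson's r was -0.54 in A (exact permutation p = 0.269, adjusted over 10 relations 0.539, n = 6) and -0.58 in B (exact permutation p = 0.229, adjusted 0.539, n = 6). Over B and C together it was -0.30 (exact permutation p = 0.425, adjusted 0.688, n = 9). The matching Spearman's rho values were -0.37 (exact permutation p = 0.497), -0.66 (exact permutation p = 0.175) and -0.28 (exact permutation p = 0.463). None passed the threshold.

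**Figure D2:**
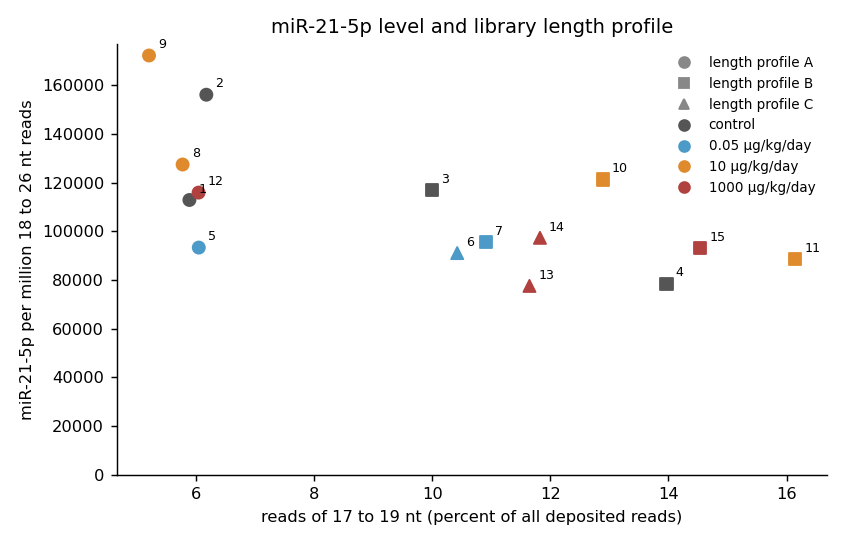
Level of miR-21-5p (RPM) against the percent of all deposited reads that are 17 to 19 nt long, with 1 point per sow, numbered. Marker shape gives the length profile and colour the dose. The 6 sows of profile A stand at the left with the 2 highest levels, of sows 9 and 2.

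The 3p arm of miR-21 was rare. Its level in controls was 35.03, 29.61, 48.06 and 19.02 RPM in sows 1 to 4. At 0.05 µg/kg/day it was 26.1, 33.7 and 21.9, and at 10 µg/kg/day it was 37.0, 49.6, 32.9 and 26.9. At 1000 µg/kg/day the values were 31.2, 22.3, 24.2 and 19.8, and all 3 dose groups overlapped the controls. miR-21-3p ranked from 769 to 2101 among the read groups of a sow. By edgeR its log2 difference from control was -0.29 (95% interval -0.98 to 0.40), 0.28 (-0.35 to 0.91) and -0.40 (-1.04 to 0.24) at 0.05, 10 and 1000 µg/kg/day, with an adjusted p of 1.00 at each, so it was not called at any dose. Without sow 9 the difference at 10 µg/kg/day was -0.03, and with no TMM factor it was 0.15 on 18 to 26 nt totals and 0.23 on totals of all deposited reads.

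Set against its partner, the 3p arm gave 1 read for 3677 reads of the 5p arm, or 0.272 per 1000. In controls the ratio was 0.310, 0.190, 0.411 and 0.242 per 1000 in sows 1 to 4. In the lowest dose it was 0.280, 0.370 and 0.229, and in the middle dose 0.290, 0.288, 0.271 and 0.304. In the highest dose it was 0.269, 0.287, 0.249 and 0.212. Controls held both the lowest and the highest ratio of the study, and the sows of the middle dose lay closest together, at a mean of 0.288 ± 0.0135 (SD, n = 4) against 0.288 ± 0.0955 (SD, n = 4) in controls. The ratio rested on 61 to 385 reads of the 3p arm per sow, and exact 95% binomial intervals, which cover counting error only, ran from 0.159 to 0.224 in sow 2 and from 0.360 to 0.466 in sow 3. The variance of the 3p counts around a single ratio was 7.25 times that of counting error (chi-square over its degrees of freedom). Every sow but sow 7 had 1 library, and PCR copies count as reads. Differences between sows and between libraries therefore cannot be told apart here. Libraries 7a and 7b of sow 7 gave 0.255 and 0.213 per 1000. By dose, the mean ratio differed from control by 0.00476, 0.000181 and -0.0339 at 0.05, 10 and 1000 µg/kg/day (two-sided exact permutation p = 0.971, 1 and 0.6). Among the 18 comparisons of arm ratio and read forms, the adjusted exact permutation p of these 3 was 1, 1 and 0.986. The smallest p that 4 sows against 4, or against 3, can give is 0.0286.

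**Figure D3:**
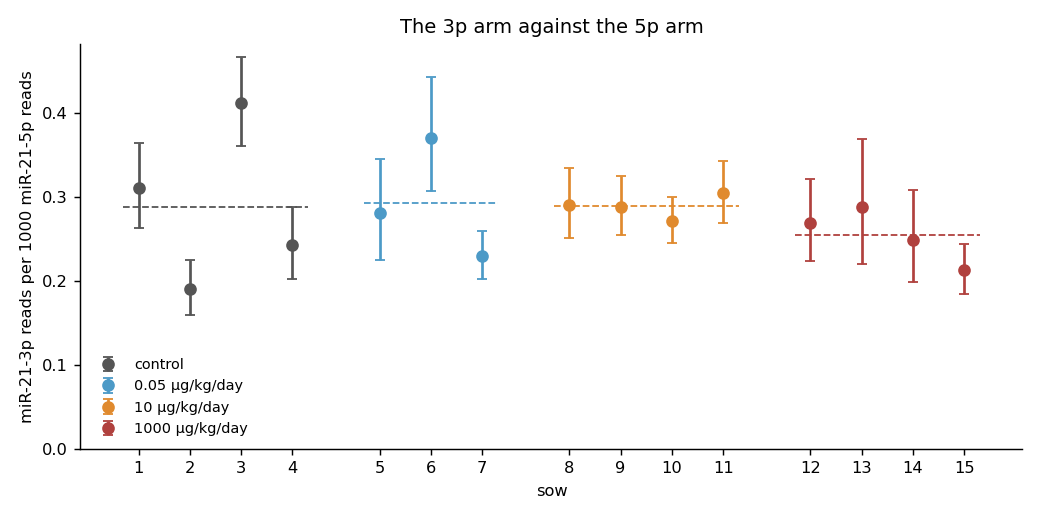
miR-21-3p reads per 1000 miR-21-5p reads in each sow. Bars are exact 95% binomial intervals of the counts, and dashed lines are dose group means. Sow 3 at 0.411 and sow 2 at 0.190, both controls, are the extremes.

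Across sows the levels of the 2 arms went together. Pearson's r of the log2 levels was 0.74 (permutation p = 0.00146, adjusted over 10 relations 0.0146, n = 15). Spearman's rho was 0.70 (permutation p = 0.00539), and its adjusted permutation p of 0.0539 did not pass the threshold. Without sows 2 and 9, the farthest from the median 5p level, r was 0.77 (permutation p = 0.00271), and leaving out each sow in turn gave 0.64 to 0.83. After removal of dose group means r was 0.65. Within length profiles it was 0.69 in A (exact permutation p = 0.114, n = 6) and 0.82 in B (exact permutation p = 0.0528, n = 6), neither of which passed the threshold alone. Both arms are divided by the same library total, which such a correlation shares.

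Most miR-21-5p reads were longer than the 22 nt of the textbook mature form. The 23 nt length held 5442746 miR-21-5p reads (54.6%) and 22 nt held 2494413, followed by 24 nt with 12.3% and 21 nt with 7.58%. Lengths of 20, 25 and 26 nt held 0.395, 0.120 and 0.0695%. The 23 nt length was the commonest in every sow, with 49.8 to 61.1%.

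By sequence, 8 forms with at least 1% each held 97.0% of miR-21-5p reads. The templated 23 nt read shown above made 50.4% (45.9 to 55.5% over sows) and the 22 nt read 24.2% (17.66 to 27.05%). The templated 21 nt read made 7.24% and the templated 24 nt read 5.31%. The other 4 forms carried 1 base after a shorter templated read. These were the 23 nt read with an added A at 5.14% (4.39 to 5.99%), the 22 nt read with an added A at 2.21%, the 22 nt read with an added T at 1.47% and the 23 nt read with an added C at 1.01%. The base next in the hairpin is A after base 21, C after base 22 and T after base 23. An added A on the 21 nt read, C on the 22 nt read or T on the 23 nt read therefore cannot be told from the templated longer read.

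All tails together, of any length, stood on 12.4% of miR-21-5p reads, and A-only tails were the commonest at 7.94%. T-only tails made 1.91%, C-only tails 1.08%, G-only tails 0.806% and mixed tails 0.663%. A tail is all that follows the longest match to the hairpin, so a changed base near the 3′ end also counts as one. The commonest mixed tail, GC on reads matching 21 bases (27466 reads), equals the 23 nt read with G at base 22. The commonest G tail, also on reads matching 21 bases (39496 reads), equals the 22 nt read with G as its last base. Added and changed bases cannot be told apart in such reads. A tailing was much the same on both main ends: 8.87% of reads ending at base 22 and 9.02% of those ending at base 23 carried an A tail. T tails stood on 5.25% of the reads ending at base 22. Of the reads that ended at base 24, 99.2% had no tail. Reads without a tail were 85.7, 85.5 and 88.4% of those that matched 21, 22 and 23 bases. Reads matching 21 bases could not show an A tail, because an A there matches base 22 of the hairpin. Of reads that matched 20 bases, 46.3% had no tail and 33.2% carried an A tail.

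Read forms did not pass the test at any dose. The 22 nt form made 24.74, 20.66, 23.50 and 25.04% of miR-21-5p reads in control sows 1 to 4 and 17.7% in sow 13, the lowest of the study. Its mean share was 23.5% ± 2.00 (SD, n = 4) in controls, 23.8% ± 1.86 (SD, n = 3) at 0.05 µg/kg/day, 25.2% ± 1.57 (SD, n = 4) at 10 and 22.3% ± 3.16 (SD, n = 4) at 1000. Templated reads of 23 nt or more had means of 56.2, 54.7, 54.9 and 57.3% in the same order, and those under 22 nt 7.82, 8.71, 7.61 and 7.74%. The highest share of these short reads was 11.8%, in sow 6. In 0 of the 18 comparisons was the adjusted exact permutation p under 0.05, and 0 had an unadjusted p under 0.05. With groups of this size a form that alone separated completely from control would have had an adjusted p of 0.514, so the adjusted values could not call a single form.

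The lowest p values concerned tails. A tails made 7.86, 8.13, 7.84 and 7.46% of miR-21-5p reads in control sows 1 to 4, and 8.05, 8.43, 8.49 and 8.39% in sows 12 to 15 at 1000 µg/kg/day. The highest-dose sows were above all controls except sow 2, which overlapped sow 12. The difference was 0.516 percentage points (two-sided exact permutation p = 0.0571, adjusted 0.514). T tails made 1.84, 2.20, 2.20 and 2.07% in the controls and 1.74, 1.88, 1.45 and 1.76% in sows 8 to 11 at 10 µg/kg/day. The middle-dose sows were below all controls except sow 1, which sow 9 exceeded. The difference was -0.372 percentage points (two-sided exact permutation p = 0.0571, adjusted 0.514).

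**Figure D4:**
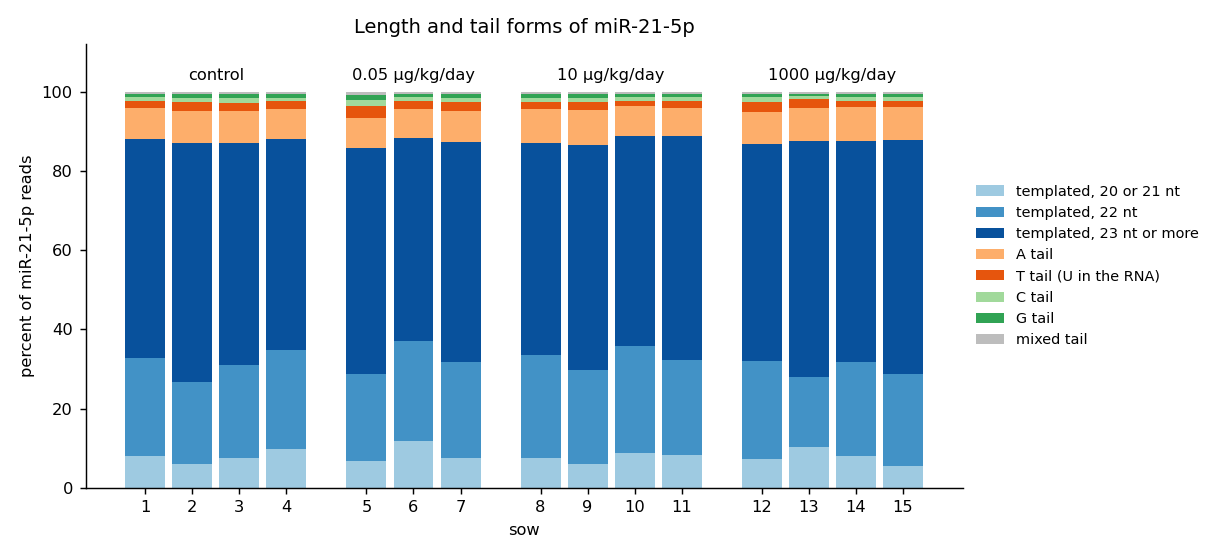
Share of miR-21-5p reads in each length and tail form, stacked to 100% for each sow and set out by dose. Templated reads of 23 nt or more are the largest part in every sow, from 51.2% in sow 6 to 60.2% in sow 2, and A tails make 7.12 to 8.85%.

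Set beside the other 19 of the 20 most abundant read groups, miR-21-5p was not at the edge in 3′ variation. Its top read made 50.4% of its group, the 12th highest of 20, where the others ran from 25.7 to 80.1% with a median of 54.2%. Reads with 1 more A than the top read amounted to 10.18% of that read, the 4th highest of 20. The groups with the seeds of let-7 (16.5%, the group of 28348 RPM), miR-27 (17.2%) and miR-199-3p (39.1%) had more. The hairpins of these groups were not read, so an added A there may be templated. These are descriptions with no test.

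The 3p arm of miR-21 had a more varied 3′ end than the 5p arm. Of its 2713 reads, 44.5% (exact 95% binomial interval 42.6 to 46.3%) matched the hairpin over their whole length, and 55.5% (53.7 to 57.4%) carried a tail, against 12.4% of 5p reads. The binomial intervals here pool the reads of all sows and cover counting error only, not the spread between sows. The precursor stretch ends at base 23 of the 3p arm, so any hairpin base beyond it is counted here as a tail; 252, 92 and 23 of the 3p reads were 24, 25 and 26 nt long. The most abundant form was the 21 nt read with 771 reads (28.4%, 20.5 to 39.3% over sows). Next were the same read with an added A with 288 (10.6%) and the templated 22 nt read with 274 (10.1%). The templated 23 nt read had 156 reads (5.75%), and the 21 nt read whose last base was C in place of the templated T had 121 (4.46%). A-only tails stood on 624 of the 3p reads (exact 95% binomial interval 21.4 to 24.6%), mixed tails on 21.6%, C-only tails on 6.08% and T-only tails on 3.43%. With 61 to 385 reads per sow, the forms of the 3p arm were not compared between doses.

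The 5′ end of miR-21-5p, which sets the seed, varied little. Of reads of 18 to 26 nt that held the 5p arm from any start between 4 bases before and 2 bases after its first base, 97.4% began at that base (97.1 to 98.0% over sows). Starts 1 and 2 bases later made 1.54 and 0.974%. A start 1 base earlier made 0.0581%, or 6007 reads, and the base in front was G in 2426 of them, C in 2303, A in 825 and T in 453.

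Single-base differences from the 23 nt read were concentrated at its 3′ end. Positions are counted from 1 at the 5′ end of that read, and the percent is of the unaltered reads. The 3 most abundant were C23A at 4.38%, C23T at 2.91% and A22G at 0.546%. The first pair are the same reads as the 22 nt form with an added A or T. A22G is the same read as the commonest mixed tail given above. Over all 23 positions, transitions, the exchange of a purine for a purine or a pyrimidine for a pyrimidine, had a median of 0.173% over 23 substitutions, against 0.0131% over 46 transversions. In the seed, where a change would alter the set of targets, the 21 substitutions had a median of 0.0232% and the highest was 0.239%. A-to-G changes in miR-21-5p had a median of 0.264% in the comparison with the other 19 abundant groups, which had 0.189 to 0.361%, so miR-21-5p lay inside their range. Its C-to-T changes, at a median of 0.0662%, were the lowest of the 17 groups with a value, just below the 0.0681 to 0.152% of the others. The medians of this comparison differ from those over all positions of the 23 nt read. Those were 0.283% for A to G and 0.0721% for C to T, the latter over 4 substitutions. The rank therefore holds for this comparison only.

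**Figure D5:**
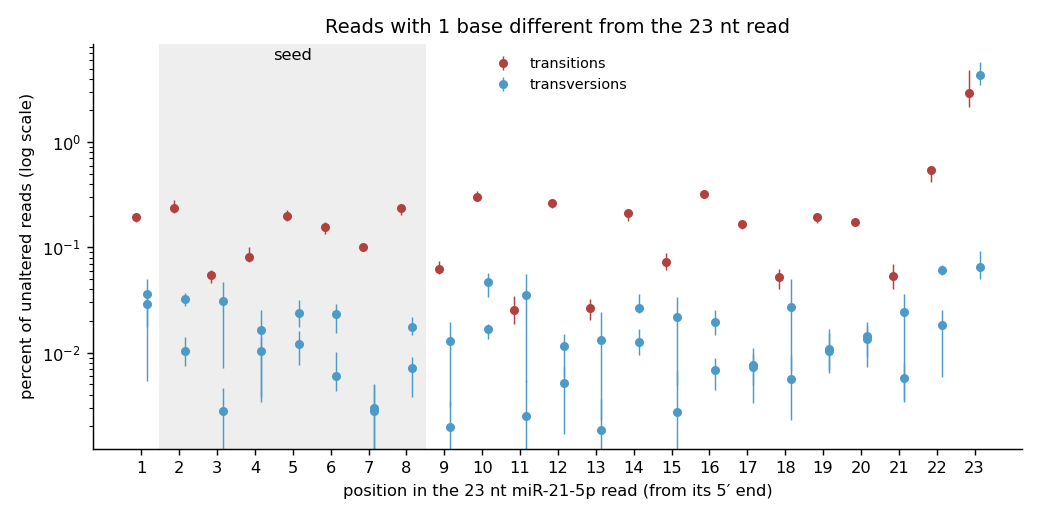
Reads that differ from the 23 nt miR-21-5p read by 1 base, as a percent of the unaltered reads on a log scale, by position from the 5′ end. Points are all sows summed, vertical lines run from the lowest to the highest sow, and grey marks the seed. The last position stands apart at 4.38 and 2.91%.

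Other read groups with the miR-21 seed were almost all neighbours of miR-21-5p in sequence. Of 81 groups with that seed, 39 differed from miR-21-5p at 1 of the 20 bases, 35 at 2 and 6 at 3 or more. The 80 together held 265359 reads, 2.66% of the miR-21-5p count, and the 6 most distant held 2801, of which 2348 were in 1 group. Of these 6, 5 kept the first 12 bases of miR-21-5p.

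Some longer reads began with the miR-21-5p arm. Between 27 and 49 nt there were 15485 such reads, against 9976005 of 20 to 26 nt. Of these, 666 ran on into the hairpin's loop, in all 16 libraries. Another 382, also in all 16 libraries, ran on into another copy of the 5p arm, and the commonest was the 45 nt read shown above with 151 copies. The remaining 14437 went on into other sequence. At the short end, 84448 reads of 18 and 19 nt were identical to the start of miR-21-5p and fall outside the definition used here.

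Over the 15 sows, the read group whose level was most like that of miR-21-5p carried the seed of miR-101 (Pearson's r of log2 levels 0.87), with a mean of 5468 RPM (3091 to 8871). It was followed by those of miR-148 (0.78), miR-30 (0.78), miR-210 (0.73), the microRNA of hypoxia, and miR-199-5p (0.71). The least alike were those of miR-128 (-0.80), miR-375 (-0.70) and miR-99/100 (-0.67). Among the 91 candidate groups with a listed seed and a mean of at least 100 RPM, the median r was 0.11, 14 groups were above 0.5 and 9 below -0.5. All groups share the library totals and the length profiles, and miR-21-5p itself is on average 10.9% of the denominator, so these values describe likeness only.

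The list of 12 seed families that are known for roles in inflammation and growth, as miR-21 is, gave 0 calls of 12 tested by edgeR at any dose, where 0% of all read groups were called. At 0.05 µg/kg/day 7 of the 12 were higher than control (49.2% of all read groups), with a median log2 difference of 0.05 against -0.01 over all read groups. At 10 µg/kg/day 10 were higher (54.5% of all read groups), with a median of 0.16 against 0.03. Most other lists also leaned upward at 10 µg/kg/day in this fit, which includes the TMM factors. Higher there were 6 of 6 stromal and smooth muscle families (median 0.24), 5 of 5 leukocyte (0.19) and 3 of 3 erythroid (0.25). So were 2 of 2 endothelial (0.22) and 3 of 4 epithelial (0.09), against 3 of 7 of other tissues (-0.01). Those 3 were miR-122 (0.14) and the groups found for the seeds of miR-124 (0.47) and miR-208 (0.42). The last pair are not counted as these microRNAs, as said above. The families of miR-1, miR-133, miR-9 and miR-375 were lower. At 1000 µg/kg/day 3 of the 12 were higher (51.5% of all read groups), with a median of -0.11 against 0.01. The most abundant member was the miR-34 family, which is induced by p53 and in ciliated epithelium, with 10092 ± 4890 RPM in controls (SD, n = 4) and 6430 ± 259 (SD, n = 3), 8912 ± 4594 (SD, n = 4) and 8953 ± 2280 (SD, n = 4) at the 3 doses in rising order. The next were the miR-25 family at a mean of 3400 over all sows, the proliferation-linked miR-17 family at 1442 and miR-210 at 1310. miR-155 and miR-223 of leukocytes were low, at 37.0 and 90.5 RPM, beside 109238 of miR-21-5p.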

How the data were processed

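Small RNA libraries of 16 endometrium samples were made with a small RNA preparation set, per the labels' protocols. The deposited files give, per the submitters, counts of each distinct read of 17 to 49 nt, not normalized. The submitters' processing notes name FastQC and, among other builds, Sscrofa10.2; the aligner and trimming settings are not given in the sources used here. Without molecular identifiers, PCR copies count as reads.

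Reads of 20 to 26 nt were grouped by their first 20 bases (Python 3.11.15), and groups with at least 30 reads in all were kept. miR-21-5p was the most abundant group with the miR-21 seed, and miR-21-3p the most abundant group that pairs with it. Other groups were named by bases 2 to 8 alone (67 seed families), so several groups can carry 1 name; the lists took the most abundant group of each seed. Tails were bases after the longest match to the precursor stretch. The arms' duplex was computed with RNAduplex 2.7.2. The 15 sows were fitted together in edgeR 4.0.16 (R 4.3.3) with robust quasi-likelihood, TMM factors of 0.804 to 1.17 on the 18 to 26 nt totals and Benjamini-Hochberg adjustment, checked on simulated data. DESeq2 1.42.0 was an alternative. Tested groups held 84.3% of 18 to 26 nt reads. Shares and ratios were compared by exact permutation over sows, and the pooled correlation by 100000 resamples; the relation over profiles B and C together was added after seeing the data. Length profiles were cut at 8% of reads of 17 to 19 nt and 5% of reads of 40 nt or more. Sows are separate animals with unique numbers, so nothing pairs them.

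Named items were both arms, 5p forms of at least 1%, the 5 commonest 3p forms, the 3 commonest substitutions, the 5 most abundant other groups, and the 5 most and 3 least alike. Members and lists were chosen with earlier results of these data known. A comparison of annotated miRNAs only was planned and is not analysed here.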

Additional observations from a re-analysis of the deposited data

How the results depend on the processing

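miR-21 was not called at an adjusted p under 0.05 under any alternative run. Of 366 values under alternatives, 30 changed sign, all of results that did not pass the threshold. The other 336 include p values of the joint test and the rank of miR-21-5p, which have no direction to change. Within length profile B the 5p difference at 0.05 µg/kg/day was 0.0158 and the 3p difference at 10 was -0.12. Leaving out each sow in turn gave -0.0502 to 0.487 for the 5p level and -0.0264 to 0.514 for the 3p level at 10 µg/kg/day, both turned by sow 9. At 0.05 and 1000 µg/kg/day it gave -0.53 to -0.12 and -0.45 to -0.03 for the 5p level, and -0.56 to -0.05 and -0.63 to -0.18 for the 3p level. The 3p ratio per 1000 moved between -0.0338 and 0.0456 at 0.05, between -0.0327 and 0.0411 at 10 and between -0.0668 and 0.00698 at 1000, and was -0.000601 at 0.05 with library 7b alone. In percentage points, the share of the 22 nt form moved between -0.611 and 1.36 at 0.05 and between -2.10 and 0.393 at 1000. Longer forms moved between -2.82 and 0.201 at 0.05 and between -2.28 and 0.0545 at 10, and shorter forms between -0.638 and 1.80, -0.798 and 0.432, and -0.899 and 0.660 at the 3 doses. A tails at 10 moved between -0.0734 and 0.505, and gave -0.0842 with tails called after the 22 nt read alone. T tails moved between -0.0878 and 0.486 at 0.05 and between -0.249 and 0.0785 at 1000. The cause was not tested. A fit on the 1350 read groups with a listed seed, chosen after seeing the data, gave -0.41, 0.07 and -0.38 for the 5p level. Counts of called read groups at the 3 doses were 0 in most fits, and 15, 171 and 39 within profile B, where groups had 1 or 2 sows. No paired analysis was possible because the sows' numbers are unique. The 3p arm is limited by its 61 to 385 reads per sow.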
